A study of Mus musculus with 18 samples.

Results

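Short hairpin RNA against Mtfr1l (shMtfr1l) was compared with a control hairpin (shNT) in mouse cardiac fibroblasts undergoing direct reprogramming, in the first of the 2 sample sets of this RNA sequencing series. The comparison uses 2 of the 18 samples of the series and every gene past a filter on low counts, 13766 of the 23420 genes in the files. Each group is 1 labelled sample with 3 count columns. The sources used here do not say whether the columns are separate cultures, libraries or sequencing runs, so they may not be independent replicates. The shMtfr1l group was primary cardiac fibroblasts from neonatal CD1 mouse hearts that received a retrovirus carrying Mef2c, Gata4 and Tbx5 on a single polycistronic transcript together with shMtfr1l, and is labelled as day 7 with a knockdown of 85%. The shNT group was the same kind of culture with the same retrovirus and shNT, also labelled as day 7. Both groups therefore carry the reprogramming vector, and neither is an untreated fibroblast culture. The cells were bulk primary cultures with no sorting named, so reprogrammed cells, unreprogrammed fibroblasts and any other heart cells were read together, and how many animals gave each sample is not stated. The second set of the series holds 3 reprogramming libraries of each hairpin, 1 from each of days 7, 8 and 9, and 6 further libraries that received shOpa1, alone or with shMtfr1l.

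Direct cardiac reprogramming turns fibroblasts into cardiomyocyte-like cells by forced expression of cardiac transcription factors, without a pluripotent stage in between. Such cultures are known to hold cells at many stages, in which genes of the contractile apparatus and of calcium cycling come up while genes of the collagenous matrix go down. Mtfr1l encodes a protein of the outer mitochondrial membrane, related to the mitochondrial fission regulators, and the series was designed to examine how its loss acts on reprogramming.

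The 3 columns of shMtfr1l held 20712136 to 21234500 gene counts and those of shNT 21573021 to 23768161. Levels are given as CPM, the count relative to the library total, scaled between columns by the trimmed mean of M values (TMM). They are not corrected for gene length, so they compare samples and not genes. The chi-square per gene between columns of the same sample was 4.36 to 7.52, against 5.37 to 10.29 between second-set libraries of the same group. Mates were counted each on their own, and among low counts (1 to 20) even values made up 72.51% in the first set and 65.86% in the second, so fragments were often counted at both mates and counting noise alone gives a chi-square per gene above 1. Because the labels give 1 sample a side, the counts of the 3 columns were summed, and a gene was called higher or lower where the summed levels differed at least 2-fold and no column of one sample overlapped the other's. That rule is a description and no test. A test came from a joint edgeR fit with the 12 libraries of the second set, in which each first-set sample was assumed to vary like a second-set library. "Rose" and "fell" are used here only of genes past an adjusted p of 0.05 in that fit (Benjamini-Hochberg, 13494 genes).

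By the 2-fold rule, 183 genes were called higher in shMtfr1l (1.33% of 13766) and 308 lower (2.24%), or 3.57% in either direction. The columns of the 2 samples were apart at any size for 44.4% of all genes, so separate columns alone say little here. By the joint fit, 263 genes rose (1.95% of 13494) and 627 fell (4.65%), or 6.6% in either direction. The counts for each gene list below are to be read beside these shares. The median log2 difference over all genes kept was 0.0011, with 6908 genes above 0 and 6858 below. At the edge of the 2-fold rule, Gpr83 lay just inside at a log2 difference of 1.01 and Rgs7 just outside at 1.00, while on the lower side Gpm6b lay just inside and Polr2g just outside.

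Mtfr1l itself (mm10 chromosome 4, 134525555 to 134535387, minus strand) stood at 7.61, 10.6 and 8.01 CPM in the columns of shMtfr1l, against 71.9, 86.6 and 78.4 CPM in those of shNT. The groups lay far apart, and the summed level was 89% lower in shMtfr1l, beside the 85% in the label. In the joint fit Mtfr1l fell by 3.18 ± 0.20 on the log2 scale (SE, adjusted p = 1.81e-10). Opa1, a dynamin-like GTPase of inner membrane fusion, stood at 86.4, 87.6 and 82.3 CPM in shMtfr1l and at 80.5, 77.4 and 82.8 CPM in shNT, with overlapping columns and an adjusted p of 0.947.

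The 3 factors of the vector were each lower in shMtfr1l, by less than 1.5-fold, and only Tbx5 passed the test. Their counts hold transcripts of the vector and of the cell's own genes alike. Mef2c, a MADS-box factor of muscle genes, stood at 459, 409 and 433 CPM in shMtfr1l and at 557, 481 and 560 CPM in shNT (log2 difference -0.29, adjusted p = 0.16). Gata4, a zinc finger factor of the embryonic and adult heart, stood at 804, 753 and 789 CPM in shMtfr1l and at 967, 877 and 956 CPM in shNT (log2 difference -0.26, adjusted p = 0.146). Tbx5, a T-box factor of the heart chambers, stood at 608, 635 and 595 CPM in shMtfr1l and at 807, 782 and 823 CPM in shNT, and fell by 0.39 ± 0.10 (SE, adjusted p = 0.0231). For all 3 factors the columns of the 2 samples were apart, with shMtfr1l below shNT, as they were for 22.3% of all genes.

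**Figure D1:**
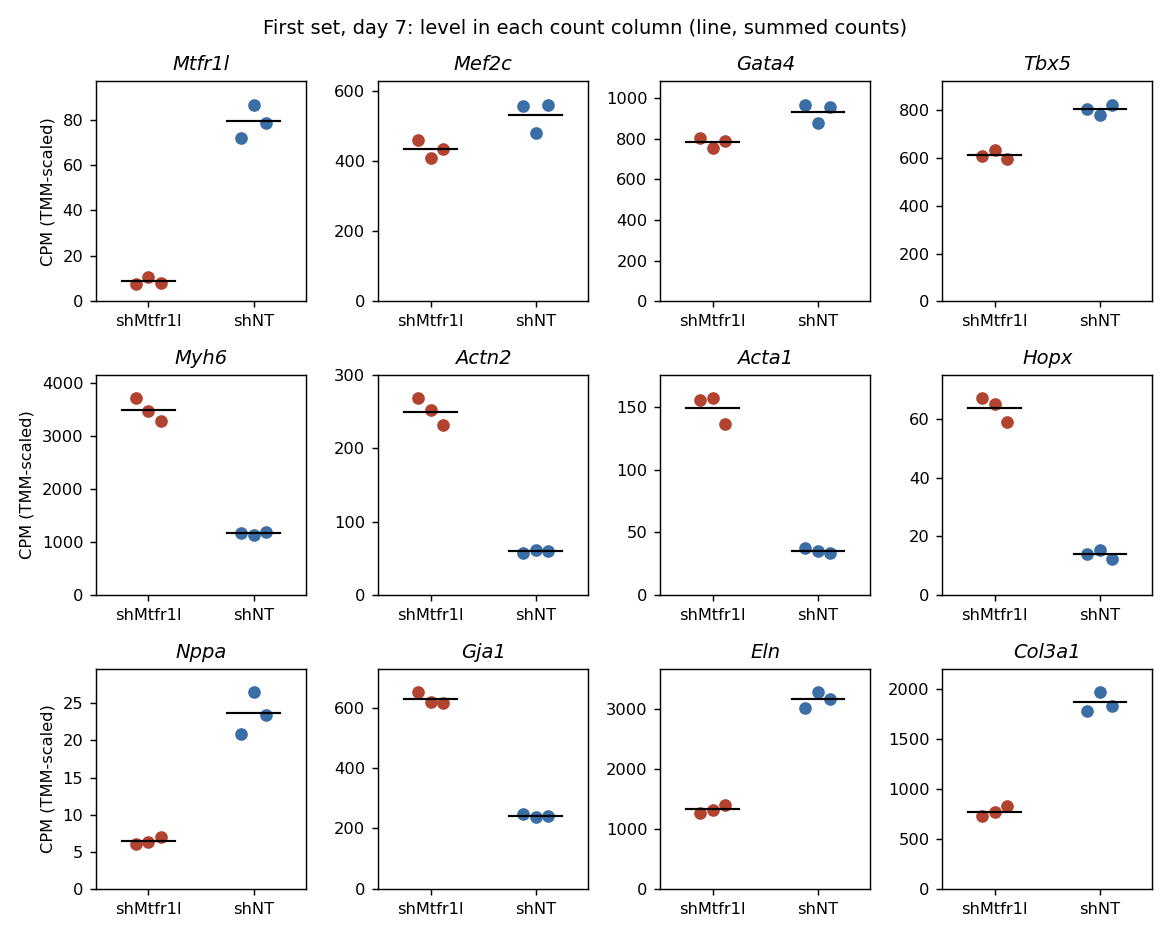
Level of 12 genes in each count column of the first set (y axis, TMM-scaled CPM from 0, own scale per gene), with shMtfr1l on the left and shNT on the right of each plot. Points are count columns and lines the summed counts. Mtfr1l, the 3 vector factors, Nppa, Eln and Col3a1 lie lower in shMtfr1l, and Myh6, Actn2, Acta1, Hopx and Gja1 lie higher.

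Contractile genes of the heart held some of the largest differences of the comparison. Their promoters are shown for Actn2, Myh6 and Acta1, which were higher in shMtfr1l, and for Nppa, which was lower, because the 3 vector factors and the serum response factor are known to act on cardiac promoters of this kind. Each sequence is the 250 bases before the RefSeq start, 5′ to 3′ on the strand of the gene (GRCm38.p6, the assembly of mm10), with matches to the searched motifs in capitals.
Actn2, chr13:12340733-12340982, minus strand: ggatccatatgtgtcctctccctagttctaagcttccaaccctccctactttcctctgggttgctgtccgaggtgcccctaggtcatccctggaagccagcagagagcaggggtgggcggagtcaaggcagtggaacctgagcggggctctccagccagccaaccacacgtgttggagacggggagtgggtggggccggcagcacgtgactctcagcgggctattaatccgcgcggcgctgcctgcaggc
Myh6, chr14:54966608-54966857, minus strand: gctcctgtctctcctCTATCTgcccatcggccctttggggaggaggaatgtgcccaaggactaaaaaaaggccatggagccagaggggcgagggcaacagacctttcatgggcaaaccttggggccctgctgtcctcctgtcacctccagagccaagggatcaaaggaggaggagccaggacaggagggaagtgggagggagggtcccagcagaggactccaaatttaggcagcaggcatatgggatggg
Acta1, chr8:123894776-123895025, minus strand: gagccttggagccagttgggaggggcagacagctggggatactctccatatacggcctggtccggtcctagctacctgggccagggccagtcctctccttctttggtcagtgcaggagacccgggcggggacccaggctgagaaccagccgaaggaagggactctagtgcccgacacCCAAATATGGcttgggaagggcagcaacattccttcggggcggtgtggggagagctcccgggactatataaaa
Nppa, chr4:148000472-148000721, plus strand: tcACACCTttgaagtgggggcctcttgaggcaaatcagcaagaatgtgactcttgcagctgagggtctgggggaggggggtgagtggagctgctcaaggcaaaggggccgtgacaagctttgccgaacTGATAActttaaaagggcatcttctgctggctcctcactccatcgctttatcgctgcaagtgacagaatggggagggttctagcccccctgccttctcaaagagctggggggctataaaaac
The motifs, searched on both strands, were the MEF2 site and the CArG box of the serum response factor, the site of GATA factors (spelled AGATAA in its first form, AGATAG in the second, TGATAA in the third and TGATAG in the last) and the T-box half-site AGGTGT. The capitals mark an AGATAG on the opposite strand in Myh6 (bases -235 to -230 from the start) and a CArG box in Acta1 (bases -73 to -64), which reads as one on both strands. In Nppa they mark an AGGTGT on the opposite strand (bases -248 to -243) and a TGATAA (bases -122 to -117). Apart from the CArG box of Acta1, matched on both strands at the same bases, no matches overlapped one another in these 4 promoters. Actn2 held none in this window. Of the genes with a RefSeq promoter, the CArG box was found in 5.34% of the 131 called higher, in 1.35% of the 223 called lower and in 1.24% of all 10138 kept. The MEF2 site was found in 3.05%, 2.69% and 1.64% of the same groups, the GATA forms in 22.1%, 20.6% and 16.8%, and the T-box half-site in 13.7%, 14.8% and 9.55%. These shares describe letters in a window and were not tested.

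The sarcomere list was divided, with large rises in some components and little difference in others. Of the 38 sarcomere genes past the filter (of 40 listed), 5 were called higher and 3 lower by the 2-fold rule, with a median log2 difference of 0.31. By the test 10 rose and 1 fell, against 1.95% and 4.65% of all genes. In bulk samples such as these, a different share of cells of a type and a different amount of RNA per cell cannot be told apart. The summed level of the list ran from 23560 to 25570 CPM over the columns of shMtfr1l and from 19280 to 19440 CPM over those of shNT. In the thick filament, Myh6, which encodes alpha myosin heavy chain, the main form in adult mouse ventricle, stood at 3706, 3469 and 3279 CPM in shMtfr1l, against 1169, 1131 and 1190 CPM in shNT. It rose 2.99-fold (adjusted p = 9.68e-07), with columns apart, as the 2-fold rule requires of a called gene. Myh7, the beta myosin heavy chain, stood at 146, 137 and 123 CPM in shMtfr1l, against 52.7, 52.1 and 55.3 CPM in shNT (2.53-fold, adjusted p = 0.00457).

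Thin filament and Z-disc genes gave the largest rises of the list. Actn2, the alpha-actinin that crosslinks actin at the Z-disc, stood at 268, 252 and 232 CPM in shMtfr1l, against 57.1, 62.1 and 59.7 CPM in shNT, a 4.18-fold rise (adjusted p = 5.4e-06). Acta1, skeletal alpha-actin, which the developing heart also uses and which is in none of the lists, stood at 156, 157 and 136 CPM in shMtfr1l, against 37.4, 35.3 and 33.6 CPM in shNT (4.21-fold, adjusted p = 6.31e-04). The columns were apart for both genes, as the 2-fold rule requires. Actc1, cardiac alpha-actin, rose 1.80-fold (adjusted p = 1.45e-04), Tnni3, cardiac troponin I, 1.77-fold (adjusted p = 0.0105), and Csrp3, a Z-disc protein, 1.48-fold (adjusted p = 0.0149). Ldb3, a Z-disc protein that binds alpha-actinin, rose 1.63-fold (adjusted p = 1.29e-04).

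Other contractile genes were nearly level or lower. Tnnt2, cardiac troponin T, stood at 5692, 5883 and 5320 CPM in shMtfr1l and at 4772, 5023 and 4910 CPM in shNT (log2 difference 0.20, adjusted p = 0.0969). Myl7 and Myl4, the atrial light chains, had log2 differences of 0.10 and 0.08 (adjusted p = 0.822 and 0.764). Xirp2, a protein of the intercalated disc, stood at 6.61, 6.47 and 6.11 CPM in shMtfr1l, against 16.7, 12.1 and 13.5 CPM in shNT. It fell by 1.13 on the log2 scale in the joint fit (adjusted p = 0.0378, but 0.0597 with the replicate number of the second set as a block and 0.079 without shNT count column 1). The ventricular light chain genes Myl2 and Myl3 were called lower by the 2-fold rule at levels under 4 CPM in every column (adjusted p = 0.459 and 0.14).

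Calcium cycling and channel genes were higher more often than lower. Of 31 past the filter (of 33 listed), 5 were called higher and none lower, with a median log2 difference of 0.39, and of the 29 in the joint fit 7 rose and none fell. Atp2a2, the calcium pump of the sarcoplasmic reticulum, stood at 3388, 3280 and 3237 CPM in shMtfr1l and at 2335, 2156 and 2358 CPM in shNT (1.45-fold, adjusted p = 6.24e-04). Ryr2, the calcium release channel, stood at 894, 720 and 809 CPM in shMtfr1l and at 479, 385 and 495 CPM in shNT (1.79-fold, adjusted p = 3.94e-04). No column overlapped for either gene, as for 44.4% of all genes. Sln, a small inhibitor of the pump, rose 1.63-fold (adjusted p = 0.00413), and Slc8a1, the sodium-calcium exchanger, 1.37-fold (adjusted p = 0.0108). Pln, the other small inhibitor of the pump, stood at 2.95, 4.38 and 3.75 CPM in shMtfr1l and at 6.22, 8.17 and 6.45 CPM in shNT (adjusted p = 0.715).

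Membrane excitability genes were among the calls. Gja1 (chromosome 10, 56377300 to 56390419, plus strand), the connexin 43 of gap junctions between heart cells and between fibroblasts, stood at 651, 617 and 615 CPM in shMtfr1l, against 247, 238 and 241 CPM in shNT, and rose 2.59-fold (adjusted p = 5.5e-10). Kcnj3, a subunit of the acetylcholine-gated potassium channel, stood at 5.61, 5.08 and 4.86 CPM in shMtfr1l and at 0.849, 0.766 and 1.14 CPM in shNT. It was called higher by the 2-fold rule and was not in the joint fit. Kcnj2, an inward rectifier channel, was called higher at under 5 CPM in every column (adjusted p = 0.51). Further channels among the largest differences were called by the 2-fold rule alone at low levels. Scn10a, a sodium channel, was 3.24-fold higher (adjusted p = 0.342), and Kcnf1, a potassium channel subunit, 3.41-fold (adjusted p = 0.16).

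Cardiac transcription factors showed no common direction. Of 18 past the filter (of 22 listed), 2 were called higher and 1 lower, and 1 rose and 1 fell (Hopx and Tbx5). Over all genes 1.95% rose and 4.65% fell, so counts this small say little of the list. Their median log2 difference was -0.05, and 0.01 without TMM scaling. Hopx (chromosome 5, 77086986 to 77115123, minus strand), a homeodomain protein that binds no DNA and marks committed cardiac cells, stood at 67.1, 65.3 and 59.2 CPM in shMtfr1l, against 13.9, 15.3 and 12.3 CPM in shNT (4.58-fold, adjusted p = 1.28e-04). Tbx3, a factor of the conduction system, was called higher (2.49-fold, adjusted p = 0.298), and Nkx2-5, an early cardiac homeobox gene, was called lower at under 2 CPM in every column (adjusted p = 0.637). Tbx20 had a log2 difference of -0.29 (adjusted p = 0.0836), and Gata6 one of 0.00 (adjusted p = 0.994).

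Among 22 other cardiomyocyte genes past the filter (of 26 listed), 3 were called higher and 1 lower, with a median log2 difference of 0.20. By the test 2 rose and 1 fell, small counts where 1.95% and 4.65% of all genes did. Rbm24, a muscle splicing regulator, rose 3.15-fold (adjusted p = 5.28e-05), and Mb, myoglobin, stood at 47.6, 43.8 and 44.3 CPM in shMtfr1l, against 17.8, 14.7 and 19.9 CPM in shNT (2.60-fold, adjusted p = 0.0023). Nppa, the atrial natriuretic peptide of embryonic and stressed myocardium, went the other way. It stood at 5.99, 6.29 and 6.99 CPM in shMtfr1l, against 20.8, 26.5 and 23.4 CPM in shNT, and fell by 1.88 ± 0.28 on the log2 scale (SE, adjusted p = 7.15e-05). Art1, a muscle ADP-ribosyltransferase, was called higher without passing the test (2.27-fold, adjusted p = 0.166).

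**Figure D2:**
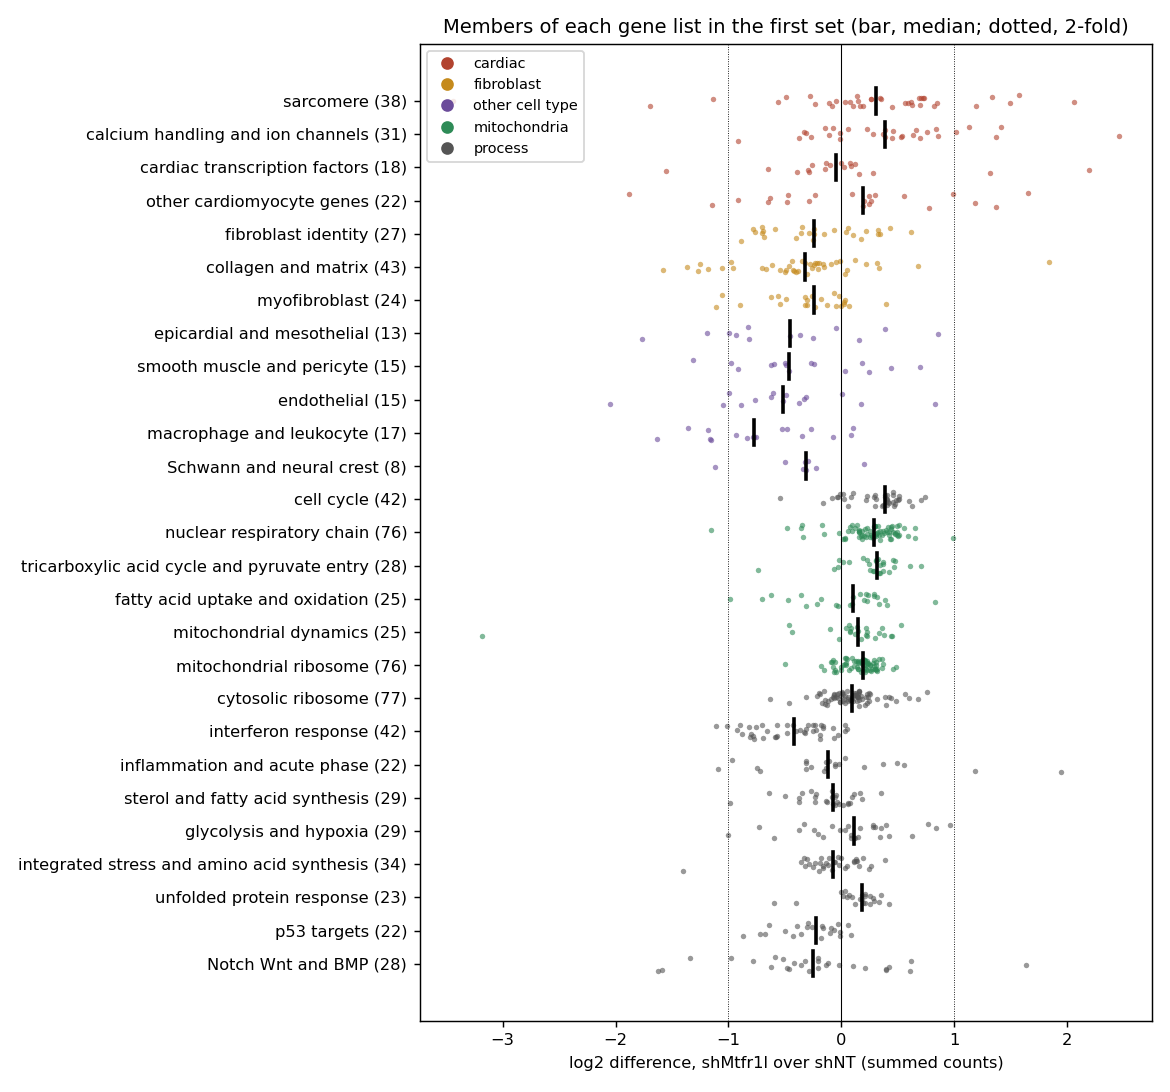
Log2 difference of shMtfr1l over shNT (x axis) for every member past the filter of 27 gene lists (rows, number of members in brackets) in the first set, from summed counts. Points are genes, bars list medians and dotted lines the 2-fold threshold. Sarcomere and calcium lists reach past 2-fold higher, while collagen and matrix genes and the markers of other cell types lie mostly to the left of 0.

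Matrix genes were lower far more often than higher. Of 43 collagen and matrix genes (of 45 listed), 6 were called lower and 1 higher, with a median log2 difference of -0.32. By the test 20 fell and 2 rose, against 4.65% and 1.95% of all genes. Col3a1 (chromosome 1, 45311538 to 45349706, plus strand), the fibrillar collagen of distensible tissue, stood at 727, 768 and 831 CPM in shMtfr1l, against 1785, 1971 and 1837 CPM in shNT, and fell by 1.26 ± 0.05 on the log2 scale (SE, adjusted p = 1.39e-13). Eln (chromosome 5, 134702596 to 134747254, minus strand), elastin, stood at 1274, 1320 and 1394 CPM in shMtfr1l, against 3016, 3286 and 3167 CPM in shNT (log2 difference -1.25, adjusted p = 4.3e-09). The columns of the 2 samples were apart for both, as the 2-fold rule requires. Of the lysyl oxidases, which crosslink collagen and elastin, Lox fell by 0.69 ± 0.07 (SE, adjusted p = 2.87e-07) and Loxl2 by 0.95 ± 0.08 (SE, adjusted p = 1.43e-08), while Loxl4 was 2.58-fold lower (adjusted p = 6.91e-08). Prelp, a leucine-rich proteoglycan, was 2.27-fold lower (adjusted p = 9.47e-08).

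The fall did not extend to every matrix gene. Col1a1, the main fibrillar collagen gene, stood at 9771, 9484 and 9938 CPM in shMtfr1l and at 9794, 9591 and 10000 CPM in shNT (adjusted p = 0.996), and Col1a2 had a log2 difference of -0.09 (adjusted p = 0.605). Postn, periostin of activated fibroblasts, stood at 1057, 1113 and 1106 CPM in shMtfr1l and at 1072, 1069 and 1050 CPM in shNT (adjusted p = 0.913). Fn1, fibronectin, fell by 0.32 ± 0.08 (SE, adjusted p = 0.0116), and Col4a2, a basement membrane collagen, by 0.49 ± 0.07 (SE, adjusted p = 2.44e-05). Fbn2, the fibrillin of developing microfibrils, was the matrix gene called higher. It stood at 63.8, 50.9 and 64.9 CPM in shMtfr1l, against 14.4, 17.3 and 18.2 CPM in shNT (3.58-fold, adjusted p = 1.55e-07).

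Fibroblast identity genes moved in both directions, and none was called by the 2-fold rule. Of 27 past the filter (of 32 listed), 8 fell and 5 rose, against 4.65% and 1.95% of all genes. Their median log2 difference was -0.24. Tcf21, a basic helix-loop-helix factor of cardiac fibroblasts, stood at 118, 129 and 122 CPM in shMtfr1l, against 188, 216 and 189 CPM in shNT (fell by 0.68 ± 0.11, SE, adjusted p = 1.87e-04). Thy1, a surface glycoprotein of fibroblasts, stood at 560, 597 and 569 CPM in shMtfr1l, against 958, 929 and 920 CPM in shNT (adjusted p = 4.72e-06). Dpt, dermatopontin, also fell (28.5, 29.4 and 35.7 CPM in shMtfr1l, against 53.2, 60.1 and 46.9 CPM in shNT, adjusted p = 3.11e-05). Pdgfra, the receptor that marks cardiac fibroblasts, rose instead (155, 159 and 168 CPM in shMtfr1l, against 121, 115 and 122 CPM in shNT, adjusted p = 0.0147). Dcn, decorin, rose 1.26-fold (adjusted p = 0.0201), and Sfrp1, a secreted Wnt inhibitor, 1.53-fold (adjusted p = 0.00276). The defining fibroblast genes of the labelled cell type were thus read in both samples, while the fibroblast markers Fap, Pi16, Ly6a, Clec3b and Scara5 did not pass the filter.

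Myofibroblast genes fell or did not pass. Of 24 past the filter (of 26 listed), 9 fell and none rose, with a median log2 difference of -0.25, and 2 were called lower by the 2-fold rule. Acta2, smooth muscle alpha-actin, stood at 1884, 2038 and 1959 CPM in shMtfr1l, against 2681, 2849 and 2720 CPM in shNT (fell by 0.48 ± 0.06, SE, adjusted p = 2.04e-05). Cthrc1, a secreted protein of activated fibroblasts, fell by 0.89 ± 0.11 (SE, adjusted p = 1.34e-05), and Ltbp2, a binding protein of microfibrils, was 2.15-fold lower (adjusted p = 3.87e-07). Comp was called lower at under 2 CPM in every column (adjusted p = 0.85).

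Markers of other heart cell types were mostly lower in shMtfr1l, and their part in the differences above was not tested. Of 13 epicardial and mesothelial genes past the filter, 4 fell and 2 rose, with summed levels of 1374 to 1419 CPM in shMtfr1l and 1399 to 1446 CPM in shNT, and Cdh1 was at 0 in all columns. Msln, mesothelin, stood at 40.0, 35.9 and 42.8 CPM in shMtfr1l, against 69.2, 73.5 and 66.0 CPM in shNT (adjusted p = 0.00361), while Wt1, a factor of the epicardium, rose 1.82-fold (adjusted p = 0.029, but 0.083 without shMtfr1l count column 1). Gpm6a and Bnc1 were called lower and fell (adjusted p = 4.05e-04 and 0.00394). Of 15 smooth muscle and pericyte genes, which share Acta2, Cnn1, Des and Ldb3 with other lists, 4 fell and 1 rose (Ldb3), with summed levels of 4682 to 4776 CPM in shMtfr1l and 5256 to 5364 CPM in shNT and Vtn at 0. Cspg4, a proteoglycan of pericytes, was 2.48-fold lower (adjusted p = 3.9e-08).

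Several of the genes that define endothelium and blood cells were sparse in both samples. Of 15 endothelial genes Eng and Flt1 fell and none rose (Flt1 adjusted p = 0.0295, but 0.0522 with the replicate block), with summed levels of 479.7 to 526 CPM in shMtfr1l and 632 to 649 CPM in shNT, most of it from Eng, and Cldn5 at 0. Pecam1 and Cdh5, which define endothelium, had summed-count levels of 1.70 and 1.14 CPM in shMtfr1l and 2.60 and 1.61 CPM in shNT. Kdr, which also defines it, was neither sparse nor lower, though it did not pass the test. Its columns held 637, 646 and 669 counts in shMtfr1l and 407, 387 and 330 counts in shNT. Of 17 macrophage and leukocyte genes 4 were called lower by the 2-fold rule (7 without shNT count column 2) and none passed the test, with a median log2 difference of -0.77. Their summed level ran from 96.7 to 142 CPM in shMtfr1l and from 193 to 260 CPM in shNT, and Cd163 and Cd3e were at 0. Lyz2, lysozyme of macrophages, held much of that sum (47.3, 62.7 and 48.7 CPM in shMtfr1l, against 135, 105 and 117 CPM in shNT, adjusted p = 0.195). Of the genes that define these cells, Cd68 had 112, 82 and 93 counts in shMtfr1l and 198, 182 and 184 in shNT. Ptprc overlapped between the samples (56, 46 and 30 counts in shMtfr1l, 69, 39 and 19 in shNT). So did Csf1r (299, 315 and 158 counts in shMtfr1l, 338, 291 and 200 in shNT). None of 8 Schwann and neural crest genes was called or passed the test (median log2 difference -0.31, summed levels of 23.4 to 24.3 CPM in shMtfr1l and 25.2 to 31.5 CPM in shNT). No red blood cell gene passed the filter, and Hba-a1 and Hba-a2 were at 0, where 3 counts would be 0.126 to 0.145 CPM.

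Genes of mitochondrial respiration lay above shNT by small amounts. Of 76 nuclear genes of the respiratory chain (of 77 listed), 17 rose and 3 fell, with a median log2 difference of 0.29, while only Atp5d was called by the 2-fold rule. Ndufb9, a complex I subunit, stood at 82.6, 84.0 and 79.5 CPM in shMtfr1l and at 50.5, 51.7 and 53.5 CPM in shNT (1.58-fold, adjusted p = 0.0017). Cyc1, cytochrome c1 of complex III, rose 1.57-fold (adjusted p = 0.00217), and Atp5b, the catalytic beta subunit of ATP synthase, 1.39-fold (adjusted p = 1.97e-04). Atp5d, the delta subunit of the same enzyme, went the other way, at 81.1, 87.7 and 79.4 CPM in shMtfr1l, against 184, 192 and 174 CPM in shNT (adjusted p = 7.06e-08).

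In the tricarboxylic acid cycle and pyruvate entry list 8 of 28 genes rose and 1 fell, with a median log2 difference of 0.32, and 13 rose without shMtfr1l count column 3. Mdh1, the cytosolic malate dehydrogenase, rose 1.63-fold (adjusted p = 1.82e-04) and Cs, citrate synthase, 1.39-fold (adjusted p = 6.24e-04), while Dld, a shared subunit of the pyruvate and oxoglutarate dehydrogenase complexes, fell by 0.73 ± 0.12 (SE, adjusted p = 3.26e-04). Of 25 fatty acid genes (of 28 listed), Acaa2, a thiolase of beta-oxidation, was the one that rose (1.77-fold, adjusted p = 1.49e-04). Of 25 genes of mitochondrial fusion, fission and cristae shape (of 34 listed), Mtfr1l and Inf2 fell and Slc25a46 rose. Inf2, a formin of mitochondrial division, had an adjusted p of 0.0475, but 0.0805 with the replicate block of the second set and 0.0634 without shMtfr1l count column 1. Mtfr1 and Mtfr2, the fission regulator relatives of Mtfr1l, had log2 differences of -0.10 and 0.23 with overlapping columns, and none of 76 mitochondrial ribosome genes passed the test (median log2 difference 0.19).

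Cell cycle genes were above 0 in 36 of 42 cases, with a median log2 difference of 0.39, yet 5 rose and 1 fell and none was called by the 2-fold rule. The 5 were Plk1, Bub1b, Ccna2, Cdk1 and Top2a, with adjusted p from 0.0179 to 0.0384, and each missed the threshold when 1 count column was left out (highest adjusted p from 0.053 to 0.0889). The count of 5 was 2 without shMtfr1l count column 2, 3 without shNT count column 3 or without shNT replicate 2 or 3 of the second set, and 3 with the replicate block. Mki67, the proliferation marker, stood at 118 CPM in shMtfr1l and 90.3 CPM in shNT from summed counts (adjusted p = 0.192). Tpx2, a spindle assembly factor, fell by 0.54 on the log2 scale (adjusted p = 0.0126). Of 77 cytosolic ribosomal protein genes 1 rose (Rpl4, adjusted p = 0.0439, but 0.0753 with the replicate block of the second set and 0.0858 without shNT count column 3), with a median log2 difference of 0.09.

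Glycolysis and hypoxia genes split, with 6 of 29 higher and 3 lower by the test. Hk2, a hexokinase of muscle, rose 1.54-fold (adjusted p = 0.00237), and Vegfa, the angiogenic growth factor, stood at 194, 196 and 202 CPM in shMtfr1l, against 104, 121 and 122 CPM in shNT (1.70-fold, adjusted p = 5.45e-05). Egln3, an oxygen-sensing prolyl hydroxylase, stood at 40.0, 41.5 and 45.1 CPM in shMtfr1l, against 86.7, 85.1 and 81.8 CPM in shNT (adjusted p = 1.24e-06). The list median was 0.11. Sterol and fatty acid synthesis genes lay near 0 (median log2 difference -0.07), with 2 of 29 that fell, Sc5d and Hsd17b7 (adjusted p = 6.97e-05 and 0.0289).

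Interferon genes were lower in most cases without passing the test. Their median log2 difference was -0.41 over 42 genes, 2 were called lower by the 2-fold rule and none rose or fell. The summed level ran from 1341 to 1532 CPM in shMtfr1l and from 1547 to 1930 CPM in shNT. Ifit3, an interferon-induced protein, stood at 18.5, 15.7 and 15.6 CPM in shMtfr1l, against 27.7, 48.1 and 22.7 CPM in shNT (adjusted p = 0.157), with shNT column 2 above the others. Without shNT count column 2 no interferon gene was called, without column 1 of shNT 4 were called lower and without column 3 of shNT 6 were.

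Inflammation and stress lists showed few calls, where 1.95% of all genes rose and 4.65% fell. Of 22 inflammation genes past the filter (of 35 listed), 1 rose and 3 fell. Ptgs2, the inducible cyclooxygenase, rose 2.28-fold (adjusted p = 0.0153), while Mmp3, a matrix metalloproteinase, stood at 20.4, 25.5 and 28.6 CPM in shMtfr1l, against 48.4, 57.3 and 52.9 CPM in shNT (adjusted p = 1.74e-04). Icam1, a leukocyte adhesion molecule, and complement C3 also fell (adjusted p = 7.52e-05 and 0.0153). Of 34 integrated stress genes Slc7a3 fell (adjusted p = 0.0382, but 0.0505 with the replicate block of the second set) at under 3 CPM, and of 23 unfolded protein response genes 3 rose, the chaperones Hspa5, Hsp90b1 and Dnajb11, and 1 fell. Of 22 p53 targets 4 fell and none rose, among them Zmat3, a zinc finger RNA-binding protein (106, 90.4 and 103 CPM in shMtfr1l, against 171, 164 and 156 CPM in shNT, adjusted p = 7.15e-05), while Cdkn1a had an adjusted p of 0.0573. The median log2 difference was -0.12 for inflammation, -0.07 for integrated stress, 0.19 for the unfolded protein response and -0.22 for p53 targets.

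Signalling genes of the Notch, Wnt and BMP pathways changed in both directions. Of 28 past the filter (of 33 listed), 6 of the 27 in the joint fit fell and 3 rose, with a median log2 difference of -0.25, where 627 genes fell and 263 rose over all genes. Bmp4, a ligand, fell by 0.97 on the log2 scale (adjusted p = 2.78e-05). The BMP targets Id2 and Id3 fell (adjusted p = 4.68e-04 and 0.00804), as did the Notch target Hes1 (adjusted p = 0.00822) and its ligand Jag1 (adjusted p = 0.0141). Nkd2, Frzb and Sfrp1, which restrain Wnt signalling, rose (adjusted p = 0.0264, 0.00118 and 0.00276). Grem1, a secreted BMP antagonist, and Wif1, a Wnt inhibitor, were called lower without passing the test (adjusted p = 0.0962 and 0.0864).

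Outside the lists, the largest difference on the higher side among genes averaging 5 CPM or more was that of Zc3h12d, a zinc finger protein of the family that degrades inflammatory mRNAs. It stood at 18.7, 14.2 and 14.7 CPM in shMtfr1l, against 0.377, 0.468 and 1.33 CPM in shNT (log2 difference 4.41, adjusted p = 1.08e-04). Further genes past the test were Txlnb, a muscle taxilin (3.39-fold, adjusted p = 0.00237), Serpind1, heparin cofactor II (3.18-fold, adjusted p = 0.00731), and Greb1, first described as an estrogen-induced gene (4.01-fold, adjusted p = 0.0401, but 0.0549 without shNT count column 3). Adamts19, a secreted metalloproteinase, was 6.29-fold higher without passing it (21.4 to 27.6 CPM in shMtfr1l, against 3.25 to 4.37 CPM in shNT, adjusted p = 0.0653). Kcnc1, a potassium channel, Sbk2, a kinase, and Egf, the growth factor, were 3.60-fold to 4.54-fold higher at about 10 CPM in shMtfr1l. Sbk2 and Egf did not pass the test (adjusted p = 0.289 and 0.274), and Kcnc1 was not in the joint fit.

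On the lower side, Gm2a (chromosome 11, 55097985 to 55113028, plus strand), the cofactor for lysosomal breakdown of GM2 ganglioside, came next after Mtfr1l. It stood at 20.3, 17.1 and 20.8 CPM in shMtfr1l, against 119, 128 and 125 CPM in shNT (fell by 2.68 ± 0.14 on the log2 scale, SE, adjusted p = 8.27e-12). Arpc2 (chromosome 1, 74236550 to 74268213, plus strand), a subunit of the Arp2/3 complex that branches actin, stood at 86.9, 85.8 and 90.5 CPM in shMtfr1l, against 294, 319 and 306 CPM in shNT (adjusted p = 8.27e-12). Jam2, a junctional adhesion molecule, stood at 334, 360.2 and 329 CPM in shMtfr1l, against 1172, 1060 and 1138 CPM in shNT (adjusted p = 1.81e-10). For all 3 genes the columns were apart, as the 2-fold rule requires. Cpne2, a calcium-dependent membrane binding protein, Fgl2, a fibrinogen-like protein, Efemp1, a fibulin, Pamr1, Edem2, a mannosidase-like protein of the endoplasmic reticulum, Pgm5, a phosphoglucomutase-like protein of adherens junctions, and Selp, P-selectin, were 2.79-fold to 3.75-fold lower, with adjusted p from 8.22e-09 to 0.00172. Fth1, ferritin heavy chain, was 4.65-fold lower (adjusted p = 2e-07), but its value is uncertain, since ferritin has many near-identical pseudogene copies and reads matching several places were not counted. Grem1, above, and Lipg, endothelial lipase, were called lower without passing the test (adjusted p = 0.0962 and 0.291).

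The same hairpin in the second set was used to see which of these differences were particular to the first. In that set 746 genes rose (5.53%) and 680 fell (5.04%), though only 450 rose without its shMtfr1l replicate 1 and 482 without its shNT replicate 1. Mtfr1l stood at 16.4 ± 2.88 CPM in shMtfr1l and 71.9 ± 4.17 CPM in shNT there (SD, n = 3 each), and its knockdown was deeper in the first set (difference in log2 -1.04 ± 0.22, SE, adjusted p = 0.00869). Knockdown depth and set cannot be told apart here. The second set spans days 7 to 9, and of its libraries those of day 7, 1 a side, stood at 3442 CPM in shMtfr1l and 3026 CPM in shNT for Eln and at 55.5 CPM in shMtfr1l and 75.8 CPM in shNT for Gm2a. On days 8 and 9 Eln stood at 2998 and 3018 CPM in shMtfr1l and at 3177 and 3052 CPM in shNT, and Gm2a at 46.7 and 50.4 CPM in shMtfr1l and at 81.5 and 80.5 CPM in shNT. The part of the day in the other differences was not tested. Of the 183 genes called higher in the first set, 138 were in the joint fit, 109 of these had the same sign in the second set (79%), and 39 rose there and none fell. Of the 308 called lower, 289 were in the joint fit, 226 had the same sign (78.2%), and 71 fell and 3 rose. The share of all genes with the same sign in both sets was not computed, so 79% and 78.2% have no baseline here. The 39 and 71 were 28.3% and 24.6% of the called genes in the joint fit, where 5.53% and 5.04% of all genes rose and fell. By the test alone, 137 genes rose and 277 fell in both sets. Another 5 rose in the first set and fell in the second, and 19 did the reverse.

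The size of the knockdown difference itself differed between the sets for 305 genes (2.26% of 13494), and 256 of these had the lower value in the first set (1.9%) against 49 with the higher one (0.363%). The cardiac genes with the largest rises did not differ past the threshold between sets: Myh6 (log2 difference 1.59 in the first set and 2.27 in the second, adjusted p of the difference 0.0753), Actn2 (2.07 and 1.58, 0.679) and Hopx (2.20 and 1.68, 0.797). Levels were scaled separately in each set, and in the second Myh6 stood at 245 ± 16.3 CPM in shMtfr1l and 50.8 ± 5.18 CPM in shNT (SD, n = 3 each). Of 38 sarcomere genes 29 rose in the second set, against 10 in the first, where 5.53% and 1.95% of all genes rose. The list median was 0.31 in the first set and 0.56 in the second. The count of 29 was 25 with the replicate block and 22 at the lowest with a column or library left out. With 1 sample a side the first set had a larger SE, for Actn2 0.25 against 0.17 in the second. The part of the SE in these counts was not tested. By the test of the difference 5 sarcomere genes were lower in the first set: Casq2, Csrp3, Myom1, Synpo2l and Xirp2. Myom1, a protein of the M-band, had a log2 difference of -0.27 in the first set and 0.50 in the second (adjusted p of the difference 0.00178), and Synpo2l, a Z-disc protein, one of -0.23 and 0.68 (0.00291). Csrp3 did not keep this call without the second set's shMtfr1l replicate 1 (adjusted p of the difference 0.0261 and 0.0599 without it).

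Of the vector factors, Tbx5 had a log2 difference of -0.39 in the first set and 0.20 in the second, with an adjusted p of 0.00733 for the difference between them. Its value in the second set alone passed the threshold with all libraries (adjusted p = 0.0386), but not without shMtfr1l replicate 1 (0.216) or with the replicate block (0.067). Mef2c had -0.29 and 0.23 (adjusted p of the difference 0.0298, but 0.0551 with the replicate block and 0.0652 without the second set's shMtfr1l replicate 1), and Gata4, which did not pass, -0.25 and 0.16 (0.0503). Of 29 calcium and channel genes in the joint fit, Casq2, Sln, Srl and Trdn were lower in the first set by this test and Gja1 was higher. Sln had a log2 difference of 0.71 in the first set and 1.75 in the second (adjusted p of the difference 0.00175). The call of Trdn was lost with the replicate block (adjusted p of the difference 0.0338, and 0.0582 with the block).

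**Figure D3:**
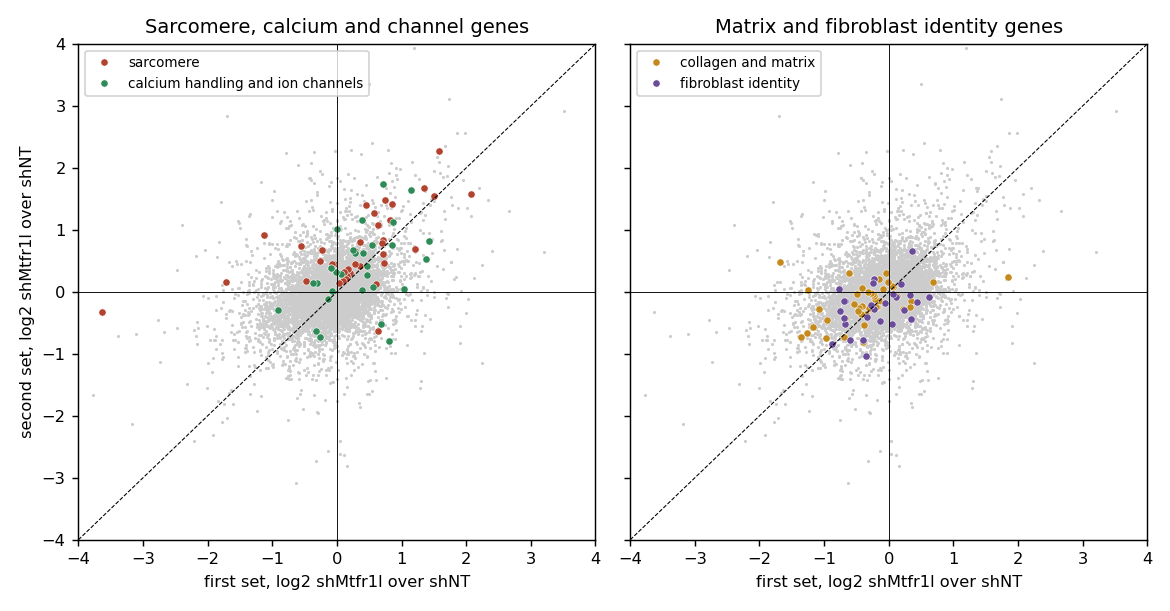
Log2 difference of shMtfr1l over shNT in the first set (x axis) and the second (y axis), from the joint edgeR fit, for all genes tested (grey) with sarcomere and calcium or channel genes on the left and matrix and fibroblast identity genes on the right. The dashed line marks equal values. Most sarcomere genes lie above the line, and several matrix genes lie left of it, among them Eln.

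Matrix genes were among those with the lower value in the first set. Eln had a log2 difference of -1.25 in the first set and 0.03 in the second (adjusted p of the difference 2.25e-07), and stood at 3153 ± 251 CPM in shMtfr1l and 3085 ± 80.6 CPM in shNT of the second set (SD, n = 3 each). Col3a1 fell in both sets, by 1.26 in the first and 0.67 in the second on the log2 scale (adjusted p of the difference 1.88e-06), and so did Gm2a, by 2.68 and 0.64 (7.59e-08). Of 43 collagen and matrix genes 20 fell in each set, 10 were lower in the first by the test of the difference and 4 higher. Among fibroblast identity genes, Dcn rose in the first set (0.34) and fell in the second (-0.43, adjusted p of the difference 8.29e-05), and Thy1 and Dpt were lower in the first (0.00162 and 2.55e-04). Pdgfra had log2 differences of 0.44 and -0.16 in the first and second sets (0.00978).

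**Figure D4:**
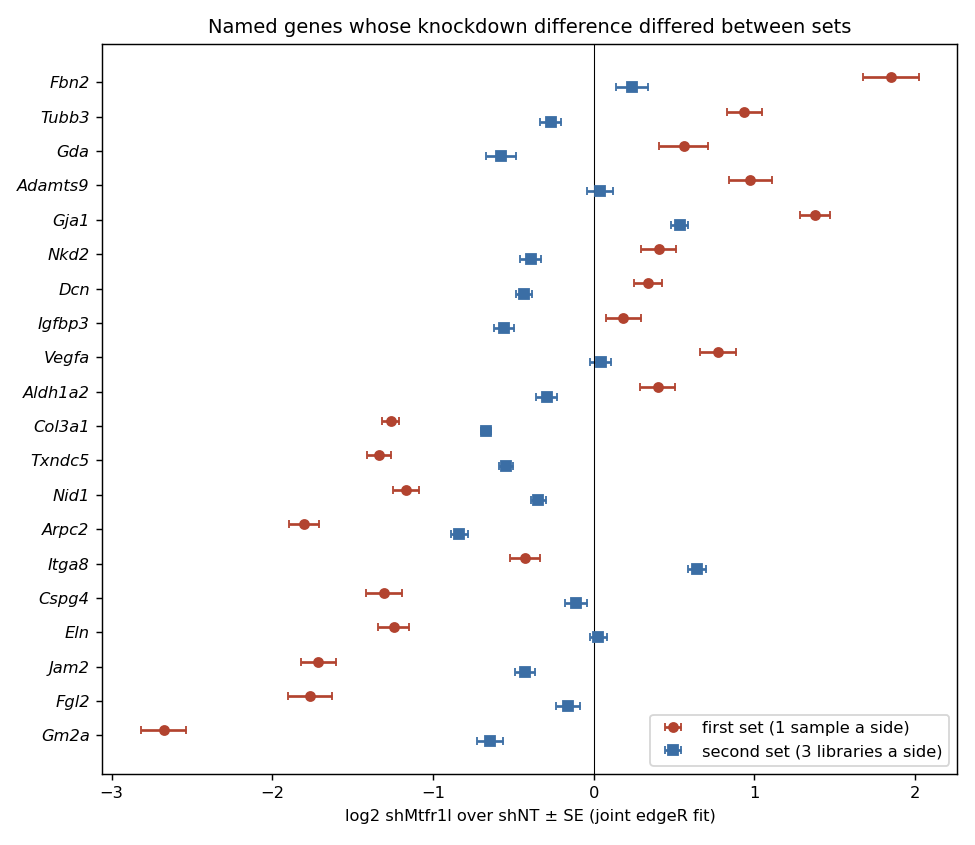
Log2 difference of shMtfr1l over shNT (x axis, with SE from the joint edgeR fit) in the first set (circles, 1 sample a side) and the second (squares, 3 libraries a side) for the 20 named genes with the smallest adjusted p for the difference between sets, 10 in each direction. Fbn2 and Tubb3 are at the top, with the higher value in the first set, and Gm2a and Fgl2 are at the bottom.

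Lists whose median was below 0 in the first set were not always so in the second. The interferon list had a median of -0.41 in the first set and 0.17 in the second, and the macrophage list one of -0.77 and 0.11, while no interferon or macrophage gene passed the test of the difference. The epicardial list was below 0 in both (-0.45 and -0.67). Cytosolic ribosome genes had medians of 0.09 and -0.17, with 12 that fell in the second set and 2 that passed the test of the difference, both higher in the first set (Rpl4 and Rplp0). The call of Rpl4 was lost with the replicate block (adjusted p of the difference 0.0277, and 0.059 with the block). The count of 2 was 1 without the second set's shMtfr1l replicate 1 or shNT count column 3, and 4 without the second set's shMtfr1l replicate 2 or shNT count column 2. Cell cycle genes had medians of 0.39 and 0.07, respiratory chain genes 0.29 and 0.08, and of these 2 lists only Atp5d, lower in the first set, passed that test.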

How the data were processed

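Bulk RNA sequencing counts were used as deposited. Per the file headers, the authors made the gene counts with featureCounts 2.0.6 against UCSC mm10 gene models, with strand setting 2, each mate counted on its own and no reads that matched several places or genes (aligner and its version: not given in the sources used here). Per the submitters' processing notes, FastQC and DESeq2 were also run. RNA was extracted with Trizol, per the labels. Of the count columns, 12 from unreprogrammed fibroblasts were not analysed here.

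Genes were kept with filterByExpr (edgeR 4.0.16, minimum count 10), which a gene can pass through 1 sample alone. The 3 columns of each first-set sample were summed, and log2 differences are of TMM-scaled CPM with a prior count of 2. A gene was called at 2-fold or more with no overlap between columns, because the first set alone, with 1 sample a side, allows no test. A joint edgeR quasi-likelihood fit of both first-set sums and the 12 second-set libraries, with a coefficient for each group, gave adjusted p-values (Benjamini-Hochberg over 13494 genes) for each set and for the difference between sets; its residual spread comes from the second set alone. CPM of the 2 sets were scaled separately. In the second set, titles tie replicates 1, 2 and 3 to days 7, 8 and 9. Deviations of same-numbered shMtfr1l and shNT libraries correlated at -0.005, -0.026 and 0.122, and those of different-numbered ones at -0.136 to 0.139. With 3 libraries a group, these values cannot tell whether same-numbered libraries share more than the label. The fits were run on simulated data in which first-set samples varied much like second-set libraries, so that assumption of the joint fit was not tested.

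Named genes were Mtfr1l, Opa1, the vector factors, the 15 largest called differences in each direction among genes averaging 5 CPM or more, up to 5 called members of each list with its defining members, and the 10 smallest p-values of the set difference in each direction. Other members were named after their values were seen. Some genes that the rule names are not reported here. The comparison, the 28 lists and the tests were chosen with earlier results of these data known. Alternatives were library totals without TMM, DESeq2 1.42.0 size factors and Wald test, no filter, other thresholds and prior counts, single columns as replicates, a replicate block, and leaving out each column or library. Depth was 20712136 to 23768161 counts a column, at which 3 counts are 0.126 to 0.145 CPM; this covers counting error only. Promoters came from RefSeq (GRCm38.p6).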

Additional observations from a re-analysis of the deposited data

Results flagged for a closer look

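The genes below were picked out because the knockdown difference itself differed between the 2 sets, by the interaction contrast of the joint edgeR fit. They are the 10 genes in each direction with the smallest adjusted p for that contrast, and each value is the log2 difference in the first set minus that in the second, with the first set resting on 1 sample a side.

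Higher in the first set, Fbn2 differed by 1.61 and Tubb3, a neuronal beta-tubulin, by 1.21. Tubb3 rose in the first set (log2 difference 0.94) and had -0.27 in the second, where its call was lost without shMtfr1l replicate 1 (edgeR adjusted p = 0.0528). Gda, guanine deaminase, differed by 1.14 and moved in opposite directions, at 0.56 in the first set and -0.58 in the second. Adamts9, a secreted metalloproteinase, differed by 0.94 and was near level in the second set (0.04). Gja1 differed by 0.84, Nkd2 by 0.80, Dcn by 0.77, Igfbp3 by 0.74, Vegfa by 0.73 and Aldh1a2 by 0.69. The first-set call of Aldh1a2 was lost without shNT count column 1 (edgeR adjusted p = 0.0876).

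Lower in the first set, Gm2a differed by -2.03, Fgl2 by -1.60, Jam2 by -1.28, Eln by -1.27, Cspg4 by -1.20, Arpc2 by -0.97 and Col3a1 by -0.60. Itga8, an integrin subunit of mesenchymal cells, differed by -1.07 and moved in opposite directions, at -0.43 in the first set and 0.64 in the second. Nid1, a basement membrane linker, differed by -0.82 and Txndc5, a disulfide isomerase of the endoplasmic reticulum, by -0.79, and both fell in each set. The cause of these differences was not tested.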

How the results depend on the processing

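The 183 higher and 308 lower calls became 304 and 466 without the count filter, 470 and 910 at 1.5-fold, and 2235 and 2437 where the columns were treated as replicates in edgeR, a count that rests on the spread between columns. They were 211 and 261 without TMM, which moved the median of all genes to 0.058. With 1 count column left out they ranged from 218 to 253 higher and from 350 to 389 lower, since fewer columns overlap less often. The pooled test ranged from 239 to 288 higher and from 586 to 666 lower with a column or library left out. For the difference between sets these ranges were 37 to 68 higher and 208 to 292 lower, and DESeq2's Wald test gave 107 and 410. The 746 rising genes of the second set ranged from 450 (without its shMtfr1l replicate 1; 482 without its shNT replicate 1) to 730, and its 680 falling genes from 511 to 684.

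With the replicate block, the first-set counts were 227 higher and 551 lower, the second-set counts 639 and 618, and those of the difference 36 and 206. Among genes named by the rule, the block ended the first-set call of Slc7a3 and the set difference of Mef2c and of Art1 (adjusted p of the difference 0.0355, and 0.0756 with the block). It ended no other first-set or set-difference call of such genes. In the second set it ended the calls of Tbx5, Zc3h12d, Efemp1, Pgm5, Kcnf1 and Scn10a. Over all alternatives 13 values of genes named by the rule fell short of the threshold in the pooled test, against 854 that did not, and 10 in the set difference, against 583. None changed direction. Log2 differences of named genes moved by more than the column spread in 3 cases, all without TMM: Gja1 to 1.43, Txndc5 to -1.28 and Ltbp2 to -1.05. Without TMM the median log2 difference of all genes moved as well, from 0.0011 to 0.058.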
